A study of Mus musculus with 7 samples.

Results

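The 10 genes described here encode parts of the desmosome, and they were taken as a fixed list by name: the desmocollins *Dsc1*, *Dsc2* and *Dsc3*, the desmogleins *Dsg1a*, *Dsg2* and *Dsg3*, the armadillo proteins *Jup*, *Pkp1* and *Pkp3*, and the plakin *Dsp*. They are 10 of 21938 protein-coding genes of the annotation on chromosomes 1 to 19, X and Y, and all 10 were found in it. This list and the gene lists set beside it were chosen with earlier results of these data known. The 6 cadherin genes lie together on chromosome 18, *Jup* lies on chromosome 11, *Pkp1* on chromosome 1, *Pkp3* on chromosome 7 and *Dsp* on chromosome 13. The data are H3K27-Ac ChIP-seq peak lists of 3 cell clones. Each clone was grown out of soft agar from a separate skin tumour, a trichoblastic carcinoma, of a *Cdkn2ab*-/- mouse on a mixed FVB/129P2 backcross background, and so every clone lacks p15 Ink4b, p16 Ink4a and p19 Arf and none has the locus intact. Clones 1 and 2 had 1 H3K27-Ac library each, and the 2 libraries of clone 3 were pooled by the authors. There were also 3 IgG libraries, 1 of clone 1 and 2 of clone 3, and none of clone 2 was analysed here. With 1 list per clone there is no replicate within a clone, no treated group and no test between groups, and the spread given is that between the 3 clones.

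Desmosomes are junctions that rivet neighbouring epithelial cells to each other and anchor their keratin filaments. The desmocollins and desmogleins are cadherins that meet in the space between the cells. Inside the cell, plakoglobin (*Jup*) and the plakophilins (*Pkp1*, *Pkp3*) bind the cadherin tails, and desmoplakin (*Dsp*) links this plaque to keratin. In skin, DSG3 and DSC3 are known mainly from the basal layers, DSG1 and DSC1 from the upper layers, and DSG2 and DSC2 from simple epithelia and the hair follicle. H3K27-Ac, acetylated lysine of histone H3, is a mark of active promoters and enhancers. A peak is a stretch of genome where the authors' peak caller found more ChIP reads than the local control background. Here a promoter peak lies within 1 kb of any annotated start of the gene, a body peak overlaps the gene by at least 1 bp beyond that window, and a distal peak lies outside the gene within 50 kb of it.

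The RefSeq promoter table (GRCm38.p6, from 250 bases before to 50 after the start) matched 2 of the 10 genes, *Jup* and *Dsp*. Their windows are shown because no others were available. They differ in these lists: a peak covered the outermost *Jup* start of the gene annotation in clones 1 and 2, and none was listed at the *Dsp* promoter in any clone. The RefSeq start behind the *Jup* window is another base, and the clone 1 peak, ending at base 100397788, stops just short of it. Capitals mark the matches found on either strand for 2 of 5 motifs searched, the GC-box GGGCGG, to which SP and KLF proteins bind, and the E2-box CACCTG, to which SNAI and ZEB repressors bind. The other motifs were the AP-1 site TGANTCA, the Grainyhead site AACNGGTT and the TATA box TATAAA, and neither window held these letters.
Jup, chr11:100397741-100398040, minus strand: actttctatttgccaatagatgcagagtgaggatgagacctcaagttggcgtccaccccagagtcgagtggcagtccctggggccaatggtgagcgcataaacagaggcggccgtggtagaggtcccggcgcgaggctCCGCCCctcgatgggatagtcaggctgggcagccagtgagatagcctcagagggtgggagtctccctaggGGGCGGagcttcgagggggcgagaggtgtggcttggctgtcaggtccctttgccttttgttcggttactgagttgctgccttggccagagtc
Dsp, chr13:38151044-38151343, plus strand: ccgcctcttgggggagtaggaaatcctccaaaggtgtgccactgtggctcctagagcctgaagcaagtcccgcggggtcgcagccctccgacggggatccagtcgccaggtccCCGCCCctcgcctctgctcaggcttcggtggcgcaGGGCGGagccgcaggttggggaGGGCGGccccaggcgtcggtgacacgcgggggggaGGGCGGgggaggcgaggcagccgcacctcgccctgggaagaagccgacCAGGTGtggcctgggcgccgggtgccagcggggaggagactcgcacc

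The *Jup* window held 2 GC-boxes, beginning 112 and 42 bases before the start. The *Dsp* window held 4, beginning 137, 102, 80 and 45 bases before it, and 1 E2-box from base 4 of the transcript. Of 20145 promoter windows of protein-coding genes, 47.8% held a GC-box, 19.7% an E2-box, 7.00% an AP-1 site, 1.98% a Grainyhead site and 12.2% a TATA box. The windows also differed in CpG content. That of *Dsp* was 73.0% G and C with 27 CpGs, an observed-to-expected CpG ratio of 0.686, and that of *Jup* was 60.7% G and C with 14 CpGs and a ratio of 0.528. A ratio of at least 0.6 with at least 50% G and C was counted as CpG-rich, which took in 9416 windows. A peak within 1 kb of the window was listed for 81.1%, 87.5% and 79.1% of the CpG-rich promoters in clones 1, 2 and 3 and in all 3 clones for 77.9%. *Dsp* was among the 22.1% of CpG-rich promoters that lacked a peak in 1 or more clones, and it lacked one in all 3. Of the 10729 other promoters, to which *Jup* belongs, 22.3%, 29.6% and 20.6% had a peak in clones 1, 2 and 3.

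The next windows are 201 bases centred on summits outside genes near *Pkp1* and *Pkp3*. They are shown because the mark was found there in all 3 clones, which was not so at either promoter. Capitals mark the AP-1 site of the first window, and neither of the others held one.
Pkp1, downstream, clone 2, chr1:135852433-135852633, plus strand: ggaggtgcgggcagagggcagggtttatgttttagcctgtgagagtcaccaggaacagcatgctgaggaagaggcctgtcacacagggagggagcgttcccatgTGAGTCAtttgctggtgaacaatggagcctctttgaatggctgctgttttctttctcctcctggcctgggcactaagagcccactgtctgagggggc
Pkp1, downstream, clone 2, chr1:135862259-135862459, plus strand: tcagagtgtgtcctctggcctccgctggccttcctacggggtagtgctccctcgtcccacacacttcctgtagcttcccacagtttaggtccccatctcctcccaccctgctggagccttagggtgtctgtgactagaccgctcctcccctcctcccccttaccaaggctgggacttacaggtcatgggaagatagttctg
Pkp3, upstream, clone 1, chr7:141047467-141047667, plus strand: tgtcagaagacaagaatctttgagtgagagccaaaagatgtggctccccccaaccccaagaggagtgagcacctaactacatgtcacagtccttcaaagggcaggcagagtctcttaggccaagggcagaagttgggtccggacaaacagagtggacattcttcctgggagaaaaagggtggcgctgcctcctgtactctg

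Among all body and distal peaks of the 10 genes that lay over 1 kb from any protein-coding start, an AP-1 site stood within 100 bases of the summit in 0 of 21 peaks of clone 1, 1 of 16 of clone 2 and 0 of 12 of clone 3. Over all such peaks on chromosomes 1 to 19 the shares were 5.85% of 16416, 7.13% of 33094 and 7.03% of 16848. The one match was the first window downstream of *Pkp1*.

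The lists held 29182, 49587 and 29277 peaks for clones 1, 2 and 3. The fold enrichment of a peak is the authors' ratio of ChIP signal to local background at the summit, and the whole number of ChIP reads there was solved from fold enrichment and p. The lowest number of reads among the 2000 weakest peaks of a list was 13, 12 and 25, with medians of 19, 16 and 32, and so a peak that is not listed may still have had fewer reads than that. Over all genes with a promoter peak the median fold enrichment at the promoter was 18.8, 39.3 and 8.30 in clones 1, 2 and 3. Folds are therefore read against their own list and not between clones.

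Promoter peaks were found at 3 of the 10 desmosome genes and in no case in all 3 clones. In clone 1 *Jup* and *Pkp1* had one, 2 of 10 genes against 49.8% of all protein-coding genes. In clone 2 *Jup* and *Pkp3* had one, 2 of 10 against 56.9%. In clone 3 none of the 10 had one, against 48.1%. The count for all 3 clones at once was 0 of 10 desmosome genes against 46.5% of all protein-coding genes. The 7 genes without one in any clone were all 6 cadherin genes and *Dsp*, against 42.6% of all protein-coding genes.

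**Figure D1:**
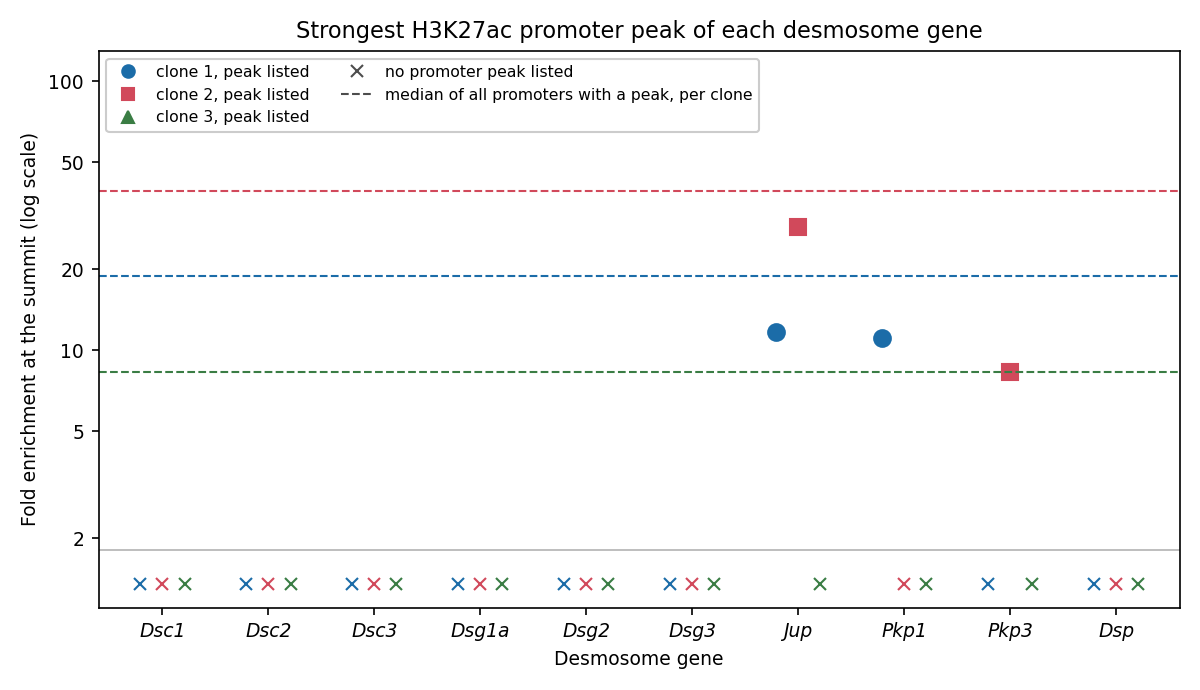
Fold enrichment at the strongest promoter peak of each desmosome gene (log scale), with 1 symbol per clone. Crosses at the foot mark clones with no promoter peak listed, and dashed lines mark each clone's median over all genes with a promoter peak. The 4 peaks drawn, 2 of *Jup* and 1 each of *Pkp1* and *Pkp3*, lie below their own clone's line, and clone 3 has none.

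*Jup* was the one desmosome gene with a promoter peak in more than 1 clone. Plakoglobin is shared by desmosomes and adherens junctions and is a close relative of β-catenin. In clone 1 the peak (chr11:100396968-100397788) had an 11.7-fold enrichment with 53 reads at the summit (exact Poisson 95% interval 39.7 to 69.3, which covers counting error only). In clone 2 it (chr11:100396883-100398021) had 28.8-fold with 115 reads (94.9 to 138.0). Both covered the outermost annotated start and had their summits in the first part of the gene, 248 and 182 bases downstream of that start in an intron. They stood at the 26.1 and 34.9 percentile of fold among all promoters with a peak in their lists, that is in the lower part of both.

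In clone 3 the nearest peak to a *Jup* start was 16.2 kb away. All genes with a promoter peak in a clone were ordered by promoter fold and split into 4 groups of equal size. *Jup* fell in the next to lowest group of clone 1 (11.4-fold to 18.8-fold), in which 97.5% of 2733 genes had a promoter peak in clone 3 as well. In the next to lowest group of clone 2 (21.6-fold to 39.3-fold), which also held *Jup*, this was 93.0% of 3120 genes. *Jup* was among the few genes of both groups with none in clone 3.

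The plakophilins had a promoter peak in 1 clone each, and not in the same one. Plakophilin 1 and 3 bring desmoplakin to the membrane and stabilise the plaque in stratified epithelia. The *Pkp1* peak of clone 1 (chr1:135918437-135919487) had 11.1-fold enrichment with 59 reads (44.9 to 76.1), its summit in an exon 263 bases into the gene, at the 23.9 percentile of promoter fold. It covered a start, and in clones 2 and 3 the nearest peaks to a *Pkp1* start were 15.4 and 13.9 kb off. In the lowest of the 4 groups of promoter fold in clone 1, which held *Pkp1*, 97.6% of 2733 genes had a promoter peak in clone 2 and 77.9% in clone 3.

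The *Pkp3* peak of clone 2 (chr7:141078947-141080538) had 8.30-fold enrichment with 40 reads (28.6 to 54.5), at the 8.74 percentile of promoter fold in that list. Its summit lay in an exon 1615 bases downstream of the outermost of 9 annotated starts, and it covered one of the inner starts. In clones 1 and 3 the nearest peaks to a *Pkp3* start were 16.7 and 29.8 kb away. Of the 3120 genes in the lowest group of promoter fold in clone 2, 51.2% had a promoter peak in clone 1 and 43.7% in clone 3, and the lack of one at *Pkp3* in those clones is thus the state of about as many genes as not.

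*Dsp*, the one plakin of the list and the link from the plaque to keratin, had neither a promoter nor a body peak in any clone. Its outermost start lies at base 38151294 of chromosome 13. The nearest peak to any of its 3 annotated starts was 26.5, 26.3 and 26.5 kb away in clones 1, 2 and 3. That peak was the same region in each clone and was also its one distal peak, 6.33, 6.14 and 6.34 kb beyond the end of the gene. It lay at the start of *Snrnp48*, a gene of the minor spliceosome, with 85, 173 and 56 reads and 15.7-fold, 31.0-fold and 6.09-fold enrichment.

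**Figure D2:**
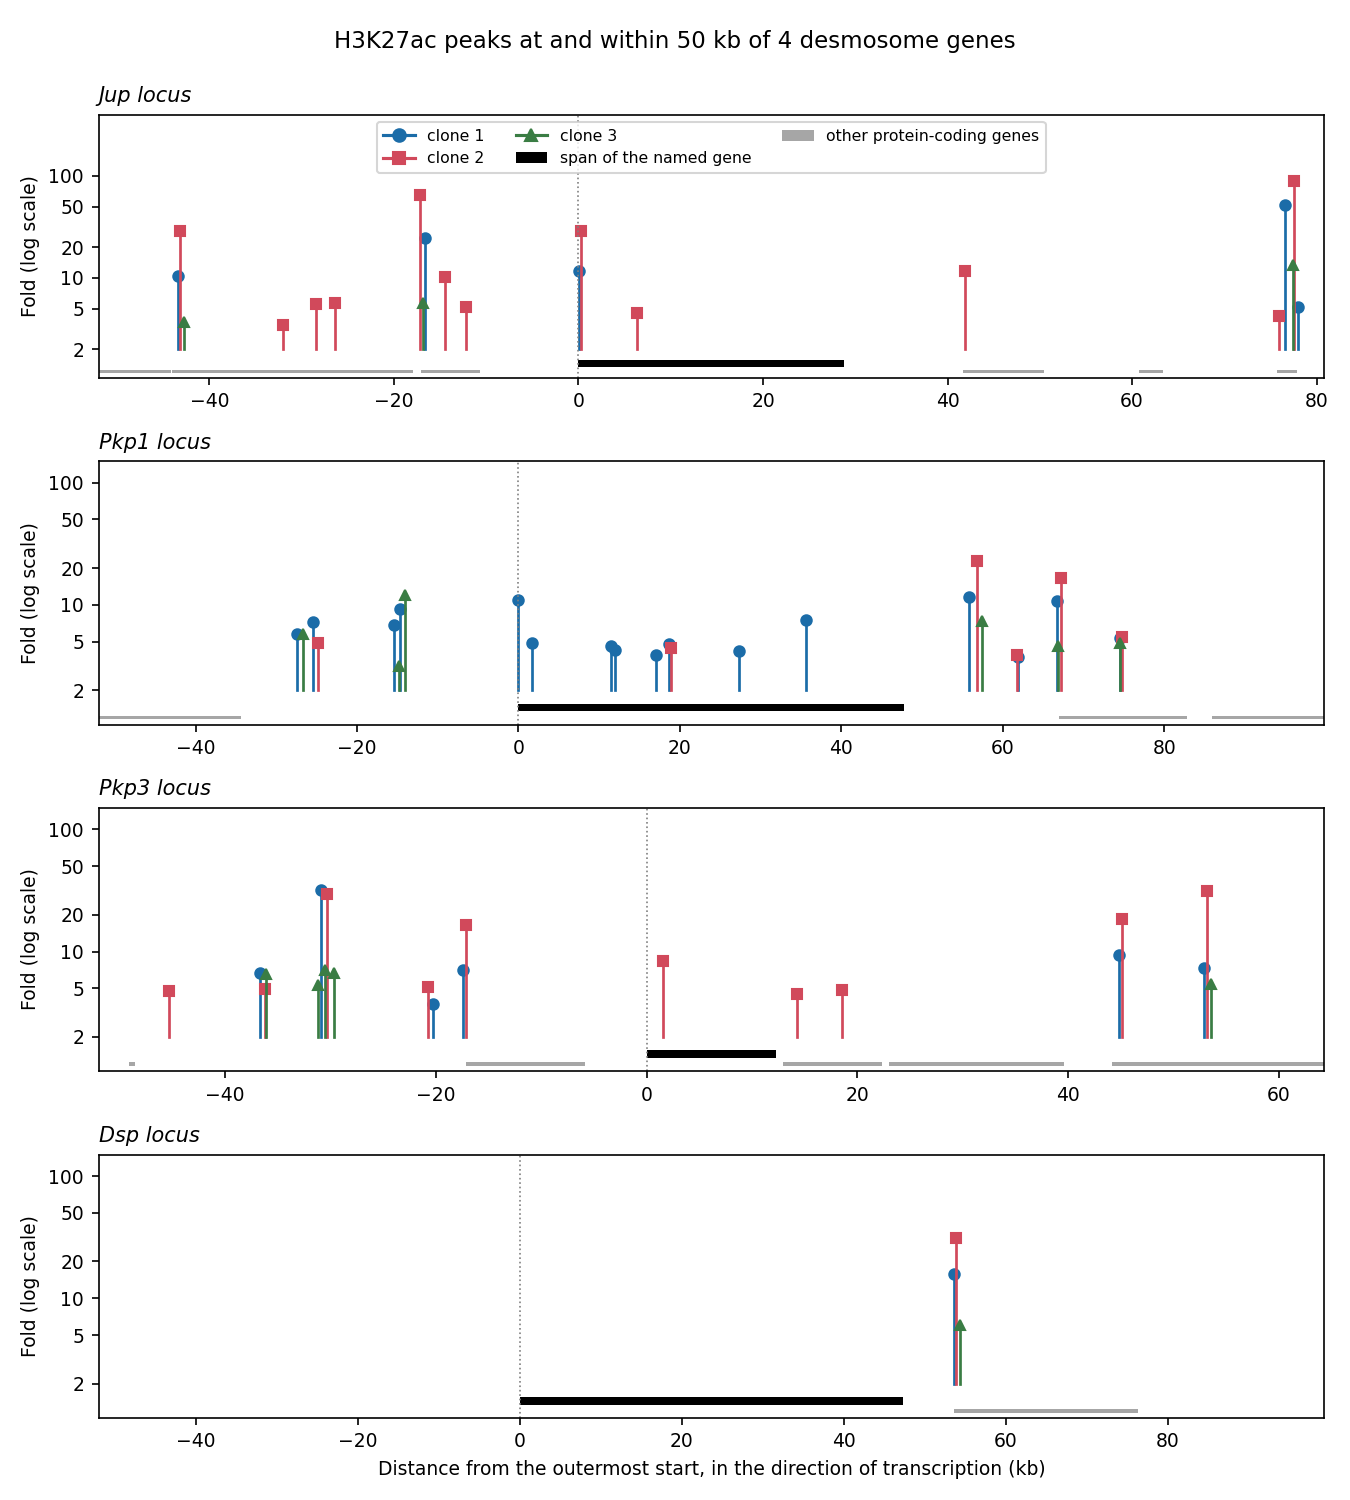
Peaks at and within 50 kb of *Jup*, *Pkp1*, *Pkp3* and *Dsp*: fold enrichment on a log scale against the distance in kb from the outermost start in the direction of transcription, with a stick for each peak coloured by clone and shifted slightly so that clones do not cover each other. Black bars are the named genes and grey bars other protein-coding genes. At *Dsp* the 3 clones share 1 peak beyond the gene, at *Jup* the tallest sticks stand at other genes, and at *Pkp1* the peaks inside the gene are nearly all of clone 1.

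Body peaks were about as frequent at the desmosome genes as over all protein-coding genes. They were listed at 2 of 10 desmosome genes in clone 1 (15.1% of all protein-coding genes), at 3 of 10 in clone 2 (27.2%) and at 1 of 10 in clone 3 (16.5%). *Dsg3* was the one with a body peak in all 3 clones, 1 of 10 against 10.9%, and 0 of 10 where each list was cut to its 29182 strongest peaks, since the *Dsg3* peak of clone 2 was then no longer listed. The body peaks of *Pkp1* came from clone 1, with 7 peaks of 16 to 31 reads spread over its introns from 2.25 to 36.0 kb downstream of the start, and peaks covered 6.82% of the gene there. In clone 2 a single one with 18 reads and 4.42-fold enrichment was listed at *Pkp1*, which overlapped one of the 7 of clone 1, and clone 3 had none. *Jup* had 1 body peak, in an intron in clone 2, with 19 reads and 4.57-fold enrichment. Of the 7 *Pkp1* peaks of clone 1, 5 had 16 to 19 reads, near the fewest of a listed peak, as did the *Pkp1* and *Jup* peaks of clone 2, and for these a difference between clones was not detectable at this depth. The strongest, with 31 reads and 7.53-fold enrichment, stood at the 48.8 percentile of fold among all peaks of its list.

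The *Dsg3* peak lay in an intron, 6.70 to 7.26 kb downstream of the start by its strongest summit in each clone. DSG3 is the basal desmoglein of the epidermis and the antigen of pemphigus vulgaris. The clones' peaks merged into one region of 1442 bp (chr18:20516811-20518252) that overlapped no exon. Clone 1 had 2 peaks there, of 7.97-fold with 30 reads (20.2 to 42.8) and 4.54-fold with 18 reads (10.7 to 28.4). Clone 2 had 1 of 6.49-fold with 28 reads (18.6 to 40.5), and clone 3 had 1 of 5.93-fold with 51 reads (38.0 to 67.1). No start of any protein-coding gene lay within 1 kb. The promoter of *Dsg3* itself had no peak, the nearest peak to a start being this one, 6.53 to 6.55 kb away.

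Across the whole desmocollin-desmoglein cluster this intron was the one place with a listed peak. The cluster runs over 644 kb (chr18:19960930-20604521) and holds 9 protein-coding genes, the 6 above with *Dsg1b*, *Dsg1c* and *Dsg4*. Peaks numbered 2, 1 and 1 in clones 1, 2 and 3 and covered 1029, 387 and 1417 bp, or 0.160%, 0.0601% and 0.220% of it (mean 0.147% ± 0.0808, SD, n = 3 clones). Over the whole of chromosome 18, 0.872%, 1.16% and 0.963% was covered. The cluster was set against windows of the same length on chromosomes 1 to 19. For the 4832 that held at least as many protein-coding genes, the median coverage was 2.17%, 3.30% and 2.01%. Of these 4832, 10.3%, 6.89% and 10.5% had as little coverage as the cluster or less in clones 1, 2 and 3. Of all 23942 windows, whatever their number of genes, 35.64%, 27.03% and 33.39% had as little or less.

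The 7 genes from *Dsc3* to *Dsg4* stood within one stretch without any peak in each clone. Its length was 557, 3707 and 556 kb in clones 1, 2 and 3. In clones 1 and 3 it began at a peak just beyond the 3′ end of *Dsc3*, 0.655 and 0.041 kb from the gene, which had 7.28-fold enrichment with 32 reads in clone 1 and 11.6-fold with 92 reads in clone 3. Clone 2, the clone with the most peaks, had none there, and its stretch reached far past the cluster. Peak-free stretches at least as long counted 812 of 28622 in clone 1, 32 of 48906 in clone 2 and 766 of 28779 in clone 3. Those that also held 7 or more protein-coding genes numbered 122, 4 and 108.

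**Figure D3:**
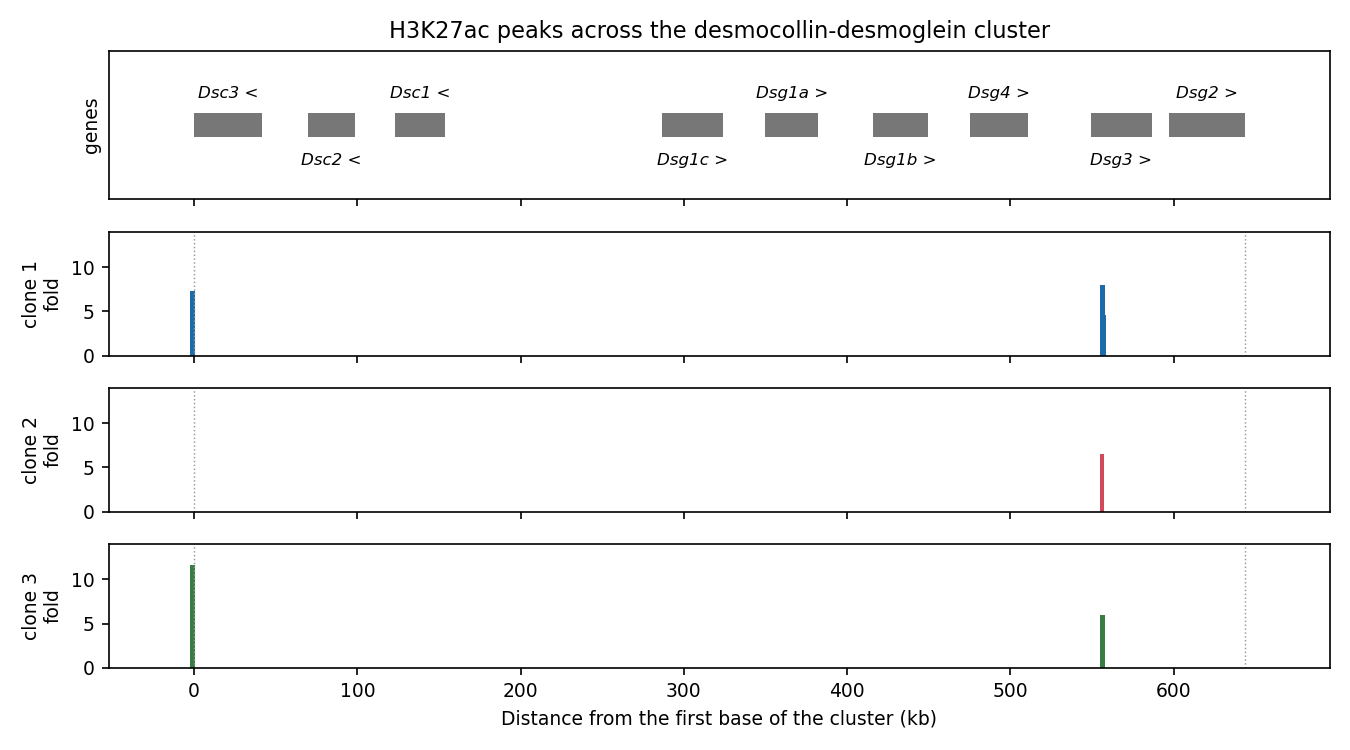
The desmocollin-desmoglein cluster with 50 kb on either side. The top row gives the 9 genes with arrows for the direction of transcription, and the rows beneath give each clone's peaks, as bars of fold enrichment drawn 3 kb wide for visibility, against the distance from the first base of the cluster in kb. All clones have a bar within *Dsg3*, clones 1 and 3 have one at the far end of *Dsc3*, and between them there is none.

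None of the 6 cadherin genes had a promoter peak, and they differed in the peaks around them. *Dsc1*, *Dsc2* and *Dsg1a* had no promoter, body or distal peak in any clone, 3 of 10 desmosome genes against 20.1% of all protein-coding genes. The desmocollin 1 and desmoglein 1 of the upper epidermis and the desmocollin 2 of simple epithelia were alike in this. For *Dsc1* the nearest peak to a start was 154.3, 401.9 and 153.7 kb away, for *Dsc2* 77.9, 457.3 and 77.3 kb, and for *Dsg1a* 206.0 kb in each clone. *Dsg1a* has the close copies *Dsg1b* and *Dsg1c* beside it, between which short reads can be hard to place, and none of the 3 had a promoter or body peak. *Dsg2* had as distal peaks those inside *Dsg3* and no other, and *Dsc3* had the peak beyond its 3′ end in clones 1 and 3.

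Distal peaks within 50 kb were listed for 6, 5 and 6 of the 10 genes in clones 1, 2 and 3, against 63.2%, 70.1% and 64.8% of all protein-coding genes. Counted once each, they numbered 22, 26 and 17, of which 10, 10 and 12 overlapped peaks of both other clones. In clone 1, 8 lay at promoters of other protein-coding genes, 2 in bodies of other protein-coding genes, 2 at another desmosome gene and 10 outside any of these. In clone 2 these counts were 12, 6, 1 and 7, and in clone 3 they were 5, 1, 1 and 10.

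Around *Jup* the distal peaks shared by all 3 clones were at the starts of other genes. The strongest stood at *Eif1*, a translation initiation factor, with 232, 408 and 126 reads in clones 1, 2 and 3, about 47 kb beyond the 3′ end of *Jup*. The region of *P3h4* and *Fkbp10*, which act on collagen, had 97, 262 and 52 reads, and that of *Nt5c3b* and *Klhl10* had 46, 137 and 57. Of the 10 distal peaks of *Jup* in clone 2, 5 overlapped no peak of another clone. Clone 3 thus had listed peaks on both sides of *Jup* but none at its promoter.

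Around *Pkp1* most distal peaks lay outside genes. A region downstream was marked in all 3 clones, its summits 56.3 to 56.9 kb from the start. The near edges of its peaks lay 6.59 to 8.83 kb beyond the 3′ end of the gene. It had 80 reads and 11.6-fold enrichment in clone 1, 114 reads and 22.8-fold in clone 2, and 66 reads and 7.37-fold in clone 3. A second shared region lay further on, by the 3′ end of *Tnnt2*, the cardiac troponin T gene, with 46, 75 and 35 reads. These are the regions of both *Pkp1* windows printed above. Upstream, a region 14.4 kb from the start had 41 reads in clone 1 and 99 reads in clone 3, and none was listed in clone 2. The flanks of *Pkp1* were marked in all clones while its promoter was marked in clone 1 alone.

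Around *Pkp3* the strongest distal peaks outside genes were about 30 kb upstream. In clone 1 a single peak of 2686 bp there had 131 reads and 32.0-fold enrichment, in clone 2 one of 2109 bp had 273 reads and 29.5-fold, and in clone 3 the region was split into 3 peaks of 49 to 66 reads and 5.37-fold to 7.12-fold. The fold in clone 1 was higher than at any promoter peak of a desmosome gene in that clone. Nearer to *Pkp3*, the start of *B4galnt4* had a peak of 31 reads in clone 1 and 74 in clone 2 and none in clone 3. *B4galnt4* is the nearest upstream gene, and no value here ties the upstream region to it or to *Pkp3*.

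The desmosomal genes outside the list gave a mixed picture. *Perp*, a tetraspan protein of desmosomes, had a promoter peak in all 3 clones with 35, 153 and 70 reads and 7.91-fold, 33.3-fold and 7.33-fold enrichment. *Pkp2*, the plakophilin of simple epithelia and heart, had one of 19.6-fold with 89 reads in clone 2 and one of 2.87-fold with 34 reads in clone 3, the latter near the weakest of its list, and none in clone 1. *Dsg1b*, *Dsg1c* and *Dsg4* had none. Of the other plakins, *Ppl* had a promoter peak in clones 1 and 2 with 24 and 102 reads, and *Evpl*, its partner in the cornified envelope, had none.

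Genes of adherens junctions and hemidesmosomes had a promoter peak more often than the desmosome genes in these counts, though each list held only 5 genes. Over all protein-coding genes the share was 49.8%, 56.9% and 48.1% in clones 1, 2 and 3. Of 5 adherens junction genes, the classical cadherin-catenin complex, 4 had a promoter peak in each clone, the catenins *Ctnna1*, *Ctnnb1* and *Ctnnd1* and P-cadherin (*Cdh3*). *Ctnnb1*, whose product is the relative of plakoglobin, had 142, 261 and 78 reads with 32.2-fold, 57.9-fold and 8.35-fold enrichment. In clone 1 one of the *Ctnna1* peaks also lay within 1 kb of a start of *Lrrtm2*. E-cadherin (*Cdh1*) had no promoter peak in any clone, though 4, 8 and 2 body peaks. Of 5 hemidesmosome genes, 3, 4 and 3 had a promoter peak in clones 1, 2 and 3, those in all clones being *Plec*, *Dst* and *Itga6* and the fourth of clone 2 being *Col17a1* with 20 reads, and *Itgb4* had none. Some of the *Plec* and *Dst* peaks lay within 1 kb of starts of *Parp10* and *Bend6* too. Of 8 keratins, which desmosomes anchor, 2, 2 and 1 had a promoter peak. *Krt10* had it in all clones, *Krt14* in clone 1 and *Krt15* in clone 2, and *Krt5*, *Krt17*, *Krt1*, *Krt8* and *Krt18* had none.

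Of 12 regulators of junction genes, 7, 8 and 6 had a promoter peak in clones 1, 2 and 3. These are 58.3%, 66.7% and 50% of the list, near the 49.8%, 56.9% and 48.1% of all protein-coding genes. The repressors of epithelial junction genes *Zeb1*, *Zeb2* and *Snai2* and the mesenchymal factor *Twist1* had one in every clone, with 78 to 223 reads at *Zeb1*, 150 to 251 at *Zeb2*, 54 to 128 at *Snai2* and 96 to 232 at *Twist1*. *Klf4* and *Klf5*, factors of epithelial cells, also had one in every clone, with 155 to 391 and 83 to 210 reads. *Snai1* had one in clones 1 and 2 and *Grhl1* one of 29 reads in clone 2. *Trp63*, *Grhl2*, *Grhl3* and *Ovol1* had none. *Trp63* had 6, 10 and 10 body peaks.

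**Figure D4:**
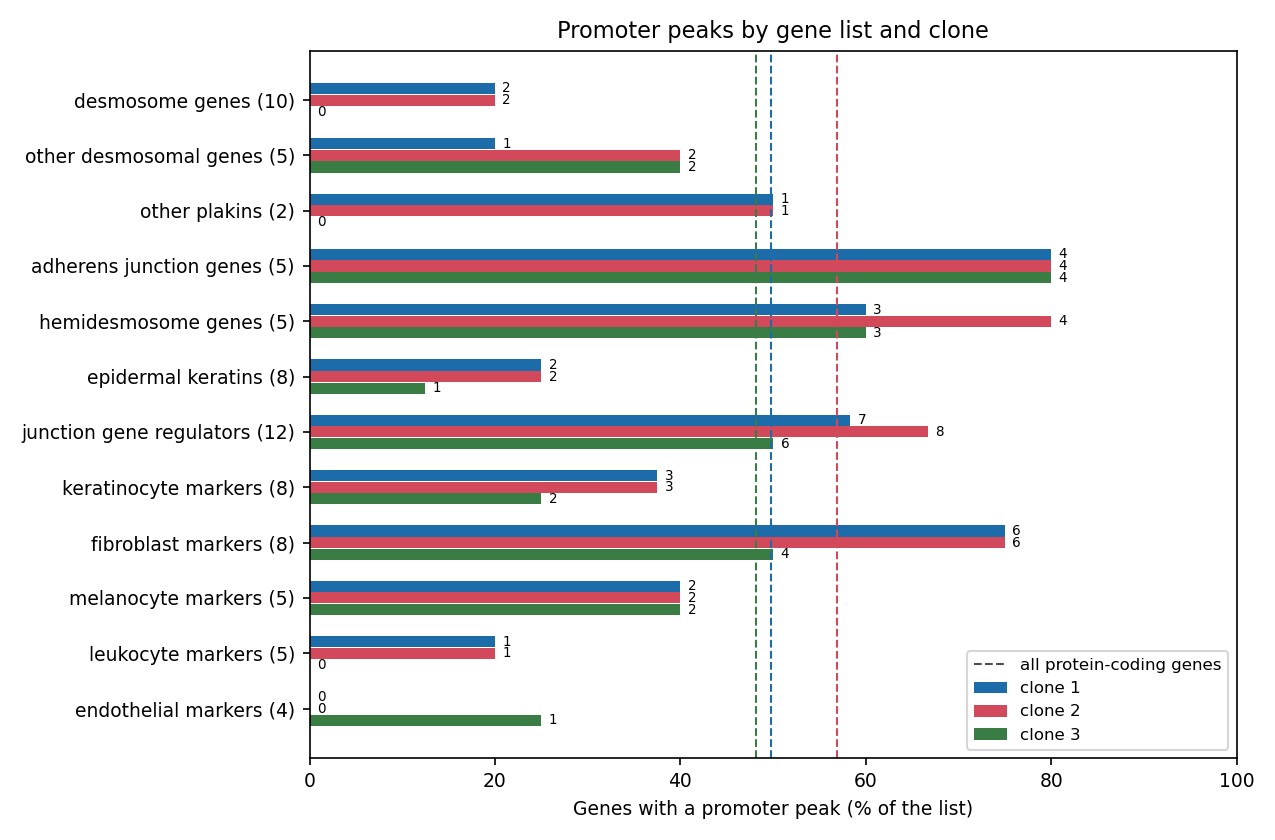
Share of each gene list with a promoter peak, in percent, with 1 bar per clone, the list's size in brackets and the number of genes at the end of each bar. Dashed lines give the share of all protein-coding genes in each clone (49.8%, 56.9% and 48.1%). The desmosome genes reach 2, 2 and 0 of 10, and the adherens junction genes 4 of 5 in every clone.

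Markers of cell types were counted in the same way. Over all protein-coding genes, 49.8%, 56.9% and 48.1% had a promoter peak in clones 1, 2 and 3. The keratinocyte markers reached 37.5%, 37.5% and 25%, and the melanocyte markers 40% in each clone. The fibroblast markers reached 75%, 75% and 50%, the last near the share of all genes. The labels and methods describe skin tumour cells, and of 8 keratinocyte markers 3, 3 and 2 had a promoter peak in clones 1, 2 and 3, namely *Cdh3* and *Klf5* in all clones, *Krt14* in clone 1 and *Sfn* in clone 2. *Krt5*, *Trp63*, *Cdh1* and *Epcam* had none in any clone. Of 8 fibroblast markers 6, 6 and 4 had one, namely *Vim*, *Pdgfrb* and *Twist1* in all clones, *Col1a1*, *Col1a2* and *Pdgfra* in clones 1 and 2, and *Col3a1* in clone 3. *Vim* had 184, 240 and 127 reads, and *Thy1* had no promoter peak in any clone. Of 5 melanocyte markers 2 had one in each clone, *Mitf* and *Pmel*, the peak of the latter lying at a start of *Cdk2* as well, and *Tyr*, *Dct* and *Sox10* had none. Of 5 leukocyte markers *Cd68* alone had one, in clones 1 and 2, and of 4 endothelial markers *Tek* alone, in clone 3. These marker counts stand beside the low counts of the desmosome genes, and their part in the result was not tested. A peak list cannot tell a promoter without the mark in all cells from one with it in few cells.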

How the data were processed

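H3K27-Ac ChIP-seq was done on 3 tumour cell clones, with IgG libraries of clones 1 and 3, and was deposited as 1 narrowPeak list of H3K27-Ac peaks per clone. The authors sequenced single-end reads, mapped them to GRCm38 with Bowtie2 and pooled the 2 libraries of clone 3. The submitters' processing notes also name MACS2 2.1.1. In the deposited lists the fold enrichment is a ratio of ChIP signal to local background at the summit, and the deposited −log10 columns hold its p-value and q-value. The peak names tell of a filter against allelic mapping bias (WASP) in clones 1 and 2 and say nothing of it for clone 3. Which control was used for clone 2 is not given in the sources used here. Clone numbers are those of the labels.

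Genes and starts were taken from GENCODE M21 (GRCm38), and coordinates count from 1. Scaffold peaks (5, 21 and 3) were left out. Fold enrichment and p were solved together for the ChIP reads at a summit, and 100% of the 1000 peaks per clone on which the scale was fitted came out whole to within 0.000378 reads, 2 of clone 1 with more than 1 solution. The recovery and the peak classes were checked on simulated data. Cluster-sized windows were placed every 100 kb from 3 Mb on. The 10 genes were all named, and genes of the other lists were named where a count was 5 or fewer. These genes and lists were chosen with earlier results of these data known. No test between groups was possible. Scripts ran in Python 3.11.15 with scipy 1.17.1, pandas 2.3.3, numpy 2.4.6 and, for plots, matplotlib 3.10.9. Alternatives were stricter peaks, equal list lengths, other windows, starts and distances, and leaving out each clone.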

Additional observations from a re-analysis of the deposited data

How the results depend on the processing

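Of 88 values under an alternative, 67 stayed close to the reported one (within 1.5 times for a count, within 1 SD over clones for a share) and 21 did not. The SD for the share, 0.0808, exceeded the whole 0.0601% of clone 2, so any fall there, even that to 0%, was counted as close. Some others of the 67 could not have moved. Each desmosome gene with a promoter peak in a clone had 1 such peak, so its strongest one was fixed, and the equal list length left clone 1 unchanged. The promoter counts of 2, 2 and 0 genes and the genes behind them were the same under all 6 alternatives for peaks, window, starts and summit. Of these, only the window of 2 kb could have raised the 0 of clone 3. Leaving out 1 clone gave 0 to 1 desmosome genes with a promoter peak in all the remaining clones, the 1 being *Jup* without clone 3, and 1 to 2 with a body peak, *Dsg3* with *Pkp1* without clone 3. While clone 3 was kept, the promoter count had to be 0, since that clone had none. With a −log10 q of at least 5 the body peak genes of clone 2 fell to 1 and its distal peaks to 16. With the strongest 29182 peaks of every clone, clone 2 had 0 body peak genes and 12 distal peaks, its *Dsg3* peak was no longer listed, its share of the cluster was 0%, and 0 genes had a body peak in all clones. Distal peaks within 25 kb numbered 11, 13 and 7 in clones 1, 2 and 3 (mean 10.3), within 100 kb 40, 54 and 34 (mean 42.7), and outside other protein-coding genes and their promoters 10, 7 and 10 (mean 9), against a mean of 21.7 within 50 kb. With 50 kb on either side the share of the cluster under peaks was 0.250% on average and 0.474% in clone 3. No paired analysis was possible because the H3K27-Ac and IgG libraries of clone 3, which share replicate numbers, are not listed one by one. The lists hold only sites past a threshold, and the fewest reads of a listed peak (12 to 25) limit what the absence of a peak shows.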
